A study of Homo sapiens with 6 samples.

Results

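Small nucleolar RNA (snoRNA) host genes were described in a prostate cancer cell line with and without a knockout of the kinase CDK12. The set held every gene with a symbol of SNHG followed by a number, together with GAS5, DANCR, ZFAS1, EPB41L4A-AS1 and TAF1D. CCDC26 was left out. By symbol, 33 of the 62696 gene rows belonged to the set. Of these, 29 had enough reads to be tested. SNHG18, SNHG28 and SNHG32 were listed at 0 in all 6 libraries, and SNHG22 had 9 reads in total. In the GENCODE 29 annotation SNHG32 overlaps another gene on the same strand, and reads shared by such genes are not counted. Its 0 therefore does not show that it is silent. The CDK12KO libraries came from C4-2 cells in which CDK12 was knocked out by CRISPR-Cas9, and the VEC libraries from the C4-2 vector line, which the labels give as wild type. C4-2 is a castration-resistant line derived from LNCaP prostate cancer cells. Both lines grew untreated in RPMI1640 with fetal bovine serum, and total RNA of 3 libraries each was sequenced. The labels do not say whether the libraries came from separate cultures or from more than 1 edited clone, so the p-values below rest on library-to-library spread alone, and that spread may be technical. Differences between the lines other than the edit cannot be told apart from the loss of CDK12.

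Most snoRNAs of human cells are not transcribed alone. They lie in introns of a host gene, are released when the host RNA is spliced, and then guide chemical marks onto ribosomal and spliceosomal RNA. Box C/D snoRNAs (SNORD) guide ribose methylation, box H/ACA snoRNAs (SNORA) guide pseudouridylation, and scaRNAs (SCARNA) act on spliceosomal RNAs in Cajal bodies. The spliced host RNA often has a short or no reading frame. Several such RNAs, GAS5 and SNHG1 among them, are known to be degraded by nonsense-mediated decay when they are translated. Many hosts, like the ribosomal protein genes, start transcription at a cytosine followed by a run of pyrimidines, the terminal oligopyrimidine (TOP) tract. CDK12 pairs with cyclin K, phosphorylates the tail of RNA polymerase II during elongation, and is best known for sustaining long genes and DNA repair genes.

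In the RefSeq annotation 32 of the 33 genes held at least 1 snoRNA gene inside their span, and 17 of them held exactly 1. SNHG27 held none. SNHG14 held 84 snoRNA genes, GAS5 held 11, SNHG1 held 9, TAF1D held 8 and SNHG17 held 5. TAF1D, which encodes a subunit of the RNA polymerase I factor SL1, and SNHG32 are annotated as protein coding in GENCODE 29. The others are noncoding genes.

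The start sites of some hosts are shown because many hosts, though not all, are known for a TOP tract. Each line gives 20 bases before and 30 bases from the RefSeq start (GRCh38.p14), and capitals mark a run of at least 4 pyrimidines (C or T) that opens with C at the first transcribed base. The first 6 hold such a run, and the 5 after them do not.
SNHG19, chr16:2155329-2155378, minus strand: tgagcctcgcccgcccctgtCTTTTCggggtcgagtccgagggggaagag
SNHG12, chr1:28581844-28581893, minus strand: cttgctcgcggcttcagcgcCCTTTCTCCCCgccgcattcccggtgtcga
SNHG4, chr5:139274081-139274130, plus strand: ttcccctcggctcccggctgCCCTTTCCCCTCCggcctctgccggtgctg
ZFAS1, chr20:49278622-49278671, plus strand: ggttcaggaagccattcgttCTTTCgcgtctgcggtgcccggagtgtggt
SNHG5, chr6:85678704-85678753, minus strand: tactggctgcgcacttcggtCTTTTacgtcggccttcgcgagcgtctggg
SNHG7, chr9:136728155-136728204, minus strand: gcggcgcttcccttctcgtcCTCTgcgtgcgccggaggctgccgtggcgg
SNHG10, chr14:95534843-95534892, minus strand: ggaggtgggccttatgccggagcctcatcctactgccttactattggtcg
SNHG30, chr17:35568094-35568143, plus strand: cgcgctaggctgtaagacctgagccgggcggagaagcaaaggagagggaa
SNHG3, chr1:28505923-28505972, plus strand: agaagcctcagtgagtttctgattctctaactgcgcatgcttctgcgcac
DANCR, chr4:52712374-52712423, plus strand: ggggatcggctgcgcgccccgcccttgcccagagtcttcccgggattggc
SNHG1, chr11:62855856-62855905, minus strand: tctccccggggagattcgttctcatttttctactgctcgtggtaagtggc

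Of the 29 host genes in the RefSeq promoter table, 10 held the run (34.5%), against 1489 of all 27305 promoters (5.45%) and 708 of the 10866 tested genes in the table (6.52%). The search read the transcribed strand only, from the annotated first base, so a start at any other base is missed. For some hosts, GAS5 and SNHG14 among them, the RefSeq start lies upstream of the whole GENCODE 29 gene. SNHG1 has 3 pyrimidines at that position and falls just short, and GAS5 has none at its RefSeq first base. The same run stood in 11 of 16 ribosomal protein genes that host snoRNAs (68.8%), in 5 of 19 other protein-coding hosts (26.3%) and in 1 of 19 long noncoding RNAs not known as hosts. A match describes letters in the annotation and is not a measured start site.

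Sequencing gave 24660798 to 30732841 reads per library, and gene counts summed to 16617644 to 21590817. CDK12KO library 2 stood apart. Its log2 CPM (read counts scaled to a common library size) correlated with those of the other 5 libraries across genes at r = 0.916 to 0.950, while those 5 correlated among themselves at 0.977 to 0.990. Its scaling factor was 0.737, against 1.038 to 1.098 in the others. The calls and fold changes of the hosts are therefore given with all 6 libraries and without CDK12KO library 2, which leaves 2 libraries against 3. CDK12 itself had 60.8, 56.9 and 56.5 CPM in CDK12KO libraries 1 to 3, against 60.2, 48.0 and 57.1 CPM in VEC libraries 1 to 3 (log2 fold change 0.08, edgeR adjusted p = 0.709). Its RNA level did not separate the groups, and a gene-level count does not show the edited bases. All 10 markers of prostate luminal cells were tested and summed to 7360 to 10300 CPM in CDK12KO and 8670 to 8790 CPM in VEC, while TP63, PECAM1, DCN, CD3E and MS4A1, markers of basal, endothelial, stromal and immune cells, were at 0 in all 6 libraries. The endothelial list, with 1 of 4 genes tested, summed to 6.66 to 10.3 CPM in CDK12KO and 4.72 to 5.32 CPM in VEC, and the stromal list, with 4 of 6 tested, to 25.5 to 32.4 CPM and 22.7 to 24.6 CPM. The basal, leukocyte and neuroendocrine lists stayed within 0 to 11.3 CPM in every library. The part of these lists in the results was not tested.

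Levels are CPM after library scaling (TMM factors), and fold changes are log2 of CDK12KO over VEC ± SE from edgeR's quasi-likelihood test. P-values were adjusted with the Benjamini-Hochberg method over all tested genes, and a gene was called when its adjusted p was under 0.05. Column 3 counts, used as an alternative, are the first of the files' stranded columns, which keeps reads shared with a gene on the other strand. With all 6 libraries, 1 of the 29 tested host genes was called, SNHG10, which was higher. Over all genes 94 of 15783 were called (0.596%), 66 of them higher (0.418%) and 28 lower (0.177%). Without CDK12KO library 2, 9 of the 29 were called: SNHG10, SNHG19, SNHG30, SNHG11, SNHG6, SNHG3 and DANCR higher, and SNHG14 and SNHG16 lower. Over all genes 3123 of 16339 were then called (19.1%), with 10.2% higher and 8.88% lower. The members therefore stood at 31.0% called, with 24.1% higher and 6.90% lower.

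The 9 called genes had groups that did not overlap in either set of libraries. With all libraries, the CPM ranges of the groups did not overlap for 12 of the 29 hosts and for 39.4% of all tested genes. Of these hosts 9 were higher in CDK12KO (20.4% of all genes) and 3 lower (19.0%). Without CDK12KO library 2 the ranges did not overlap for 13 hosts, 10 of them higher and 3 lower, and for 47.2% of all genes. With all libraries 9 hosts had an unadjusted p under 0.05 in edgeR, as had 21.7% of all genes. The 29 log2 fold changes had a median of 0.29 with all libraries, where that of all genes was 0.00037. Of the 29 values 22 were above 0, as were 7898 of the 15783 over all genes. Without CDK12KO library 2 the median was 0.0081 and that of all genes was -0.01. Then 16 values were above 0, as were 7891 of the 16339 over all genes. Measured against the VEC mean, the median log2 shift of the 29 was 0.04 in CDK12KO library 1, 0.62 in library 2 and 0.13 in library 3. Library 2 was the highest of all 6 libraries for 16 of the 24 hosts that averaged 5 CPM or more, and the lowest for 4. The same counts over all genes were not made, so these cannot be read as particular to the hosts. In bulk RNA, less of a transcript per cell and fewer cells that hold it cannot be told apart.

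**Figure D1:**
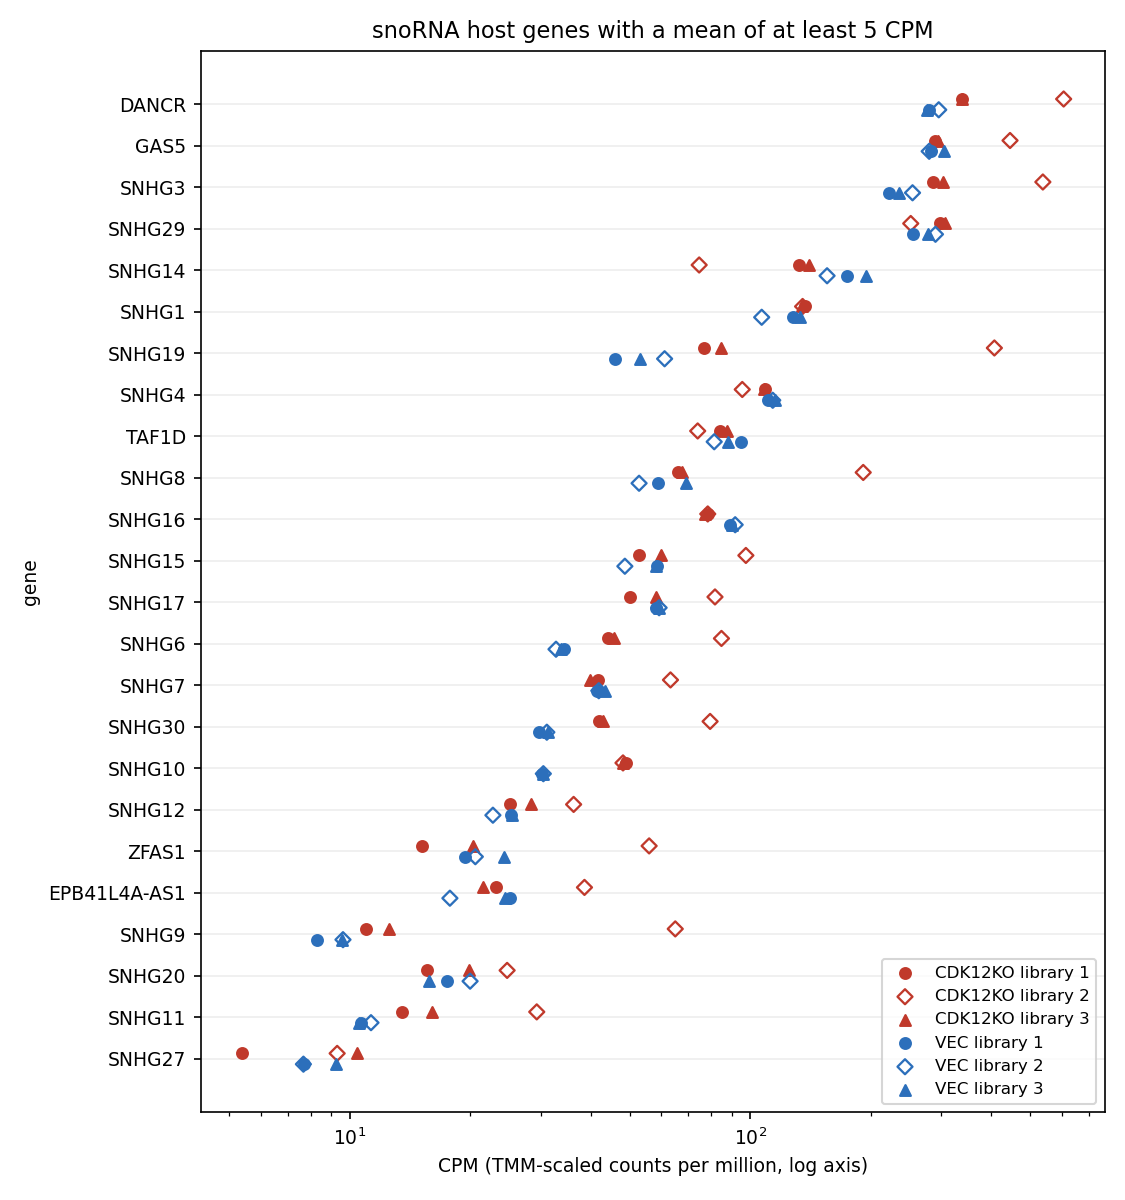
CPM on a log axis of the 24 hosts that averaged 5 CPM or more, sorted by mean, with 1 symbol per library (red CDK12KO, blue VEC, open diamonds the libraries numbered 2). CDK12KO library 2 lies to the right of the other libraries for 16 genes, and the 6 points of SNHG10 form 2 tight groups.

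SNHG10 hosts SCARNA13 and lies at chr14:95532297-95534872 on the minus strand. It had 48.9, 48.1 and 48.2 CPM in CDK12KO libraries 1 to 3, against 30.2, 30.5 and 30.3 CPM in VEC libraries 1 to 3. The groups were far apart, library 2 among them, with means of 48.4 ± 0.392 and 30.3 ± 0.107 CPM (SD, n = 3 each). These SDs are below the counting error of 544 to 1035 reads per library, so they understate the uncertainty of the levels. The log2 fold change was 0.67 ± 0.10 with all libraries (edgeR adjusted p = 0.0483) and 0.67 ± 0.088 without CDK12KO library 2 (edgeR adjusted p = 2.96e-05). The call on 5 libraries held in all 15 alternatives, with adjusted p of at most 0.00136. The call on 6 libraries held in 7 of 16 alternatives, with adjusted p of 2.49e-06 to 0.335 over the tools and settings, and was lost when any VEC library or CDK12KO library 1 or 3 was left out (0.151 to 0.335).

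SNHG19, SNHG30 and SNHG6 each host 1 box C/D snoRNA: SNORD60, SNORD7 and SNORD87. SNHG19, a short gene at chr16:2154797-2155358, had 76.5, 407 and 84.5 CPM in CDK12KO libraries 1 to 3, against 45.9, 61.1 and 53.0 CPM in VEC. Library 2 was far above its own group mates, and the other CDK12KO libraries still lay above every VEC library. The log2 fold change was 1.83 ± 0.64 with all libraries (edgeR adjusted p = 0.210) and 0.59 ± 0.097 without library 2 (edgeR adjusted p = 0.000271), and the second was called in all 15 alternatives. DESeq2, which called 6.21% of all genes with all libraries, called 2 hosts there, SNHG10 and SNHG19 (adjusted p = 0.0381 for SNHG19).

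SNHG30 had 41.9, 79.4 and 42.9 CPM in CDK12KO, against 29.6, 31.1 and 31.3 CPM in VEC. Its log2 fold change was 0.83 ± 0.26 with all libraries (edgeR adjusted p = 0.188) and 0.46 ± 0.091 without CDK12KO library 2 (edgeR adjusted p = 0.00142), and the second was called in all 15 alternatives. SNHG6 had 44.0, 84.8 and 45.7 CPM in CDK12KO, against 34.3, 32.8 and 33.6 CPM in VEC. For both genes CDK12KO libraries 1 and 3 agree closely and lie above VEC, with library 2 higher again. SNHG6 had a log2 fold change of 0.79 ± 0.26 with all libraries (edgeR adjusted p = 0.201) and 0.41 ± 0.089 without library 2 (edgeR adjusted p = 0.00303), and lost the second call when CDK12KO library 3 was left out as well (0.0656).

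SNHG3 hosts SNORA73A and SNORA73B, and DANCR hosts SNORA26. DANCR is known from human epidermal progenitors as a brake on differentiation. SNHG3 had 286, 537 and 302 CPM in CDK12KO libraries 1 to 3, against 222, 254 and 236 CPM in VEC. Its log2 fold change was 0.66 ± 0.26 with all libraries (edgeR adjusted p = 0.220) and 0.30 ± 0.067 without CDK12KO library 2 (edgeR adjusted p = 0.00349), a call lost when CDK12KO library 3 was left out too (0.108). DANCR had 337, 606 and 338 CPM in CDK12KO, against 279, 295 and 276 CPM in VEC. These 2 hosts showed the smallest rises among those called without library 2. DANCR had a log2 fold change of 0.59 ± 0.25 with all libraries (edgeR adjusted p = 0.230) and 0.25 ± 0.062 without library 2 (edgeR adjusted p = 0.00803). That call was held in 11 of 15 alternatives, and was lost without CDK12KO library 1 (0.119), without CDK12KO library 3 (0.119), with column 3 counts (0.0528) and after correction for length and GC content (0.0636).

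SNHG11 hosts SNORA60 and SNORA71E. It had 13.5, 29.3 and 16.03 CPM in CDK12KO, against 10.7, 11.3 and 10.6 CPM in VEC. All 3 CDK12KO libraries were higher, with library 2 again at the top. The log2 fold change was 0.85 ± 0.29 with all libraries (edgeR adjusted p = 0.208) and 0.44 ± 0.14 without library 2 (edgeR adjusted p = 0.0306). This call was held in 8 of 15 alternatives and was lost when VEC library 1 (0.0716), VEC library 3 (0.0822), CDK12KO library 1 (0.0651) or CDK12KO library 3 (0.369) was left out. Library size as the only scaling, column 3 counts and the length and GC correction ended it too (0.0505, 0.0931 and 0.0541).

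SNHG14 is the very long transcript of the imprinted Prader-Willi region on chromosome 15. It carries the SNORD115 and SNORD116 clusters, and its distal part runs antisense to UBE3A. It had 133, 74.6 and 140.2 CPM in CDK12KO libraries 1 to 3, against 175, 156 and 195 CPM in VEC. All 3 CDK12KO libraries were lower, and library 2 was the lowest. The log2 fold change was -0.60 ± 0.25 with all libraries (edgeR adjusted p = 0.226) and -0.37 ± 0.081 without library 2 (edgeR adjusted p = 0.00370). That call was lost when CDK12KO library 1 was left out as well (0.0728), and the value was -0.20 after correction for length and GC content. SNHG14 has by far the longest exonic sequence of the set (43324 bases), and overlaps exons of SNRPN and UBE3A.

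SNHG16 hosts SNORD1A, SNORD1B and SNORD1C. It had 78.3, 78.3 and 77.1 CPM in CDK12KO, against 89.3, 91.7 and 89.8 CPM in VEC. The difference was small in size, but it was larger than the spread within either group. Library 2 was at the level of its group. The log2 fold change was -0.21 ± 0.100 with all libraries (edgeR adjusted p = 0.251) and -0.22 ± 0.070 without library 2 (edgeR adjusted p = 0.0325). Counted by strand (column 3) it was 0.06 (edgeR adjusted p = 0.588), so the direction depended on how reads shared with an overlapping gene were counted. Leaving out VEC library 1 (0.0803), VEC library 3 (0.0759), CDK12KO library 1 (0.187) or CDK12KO library 3 (0.278) also ended the call, as did upper-quartile factors (0.0532) and no filter on low counts (0.0828).

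**Figure D2:**
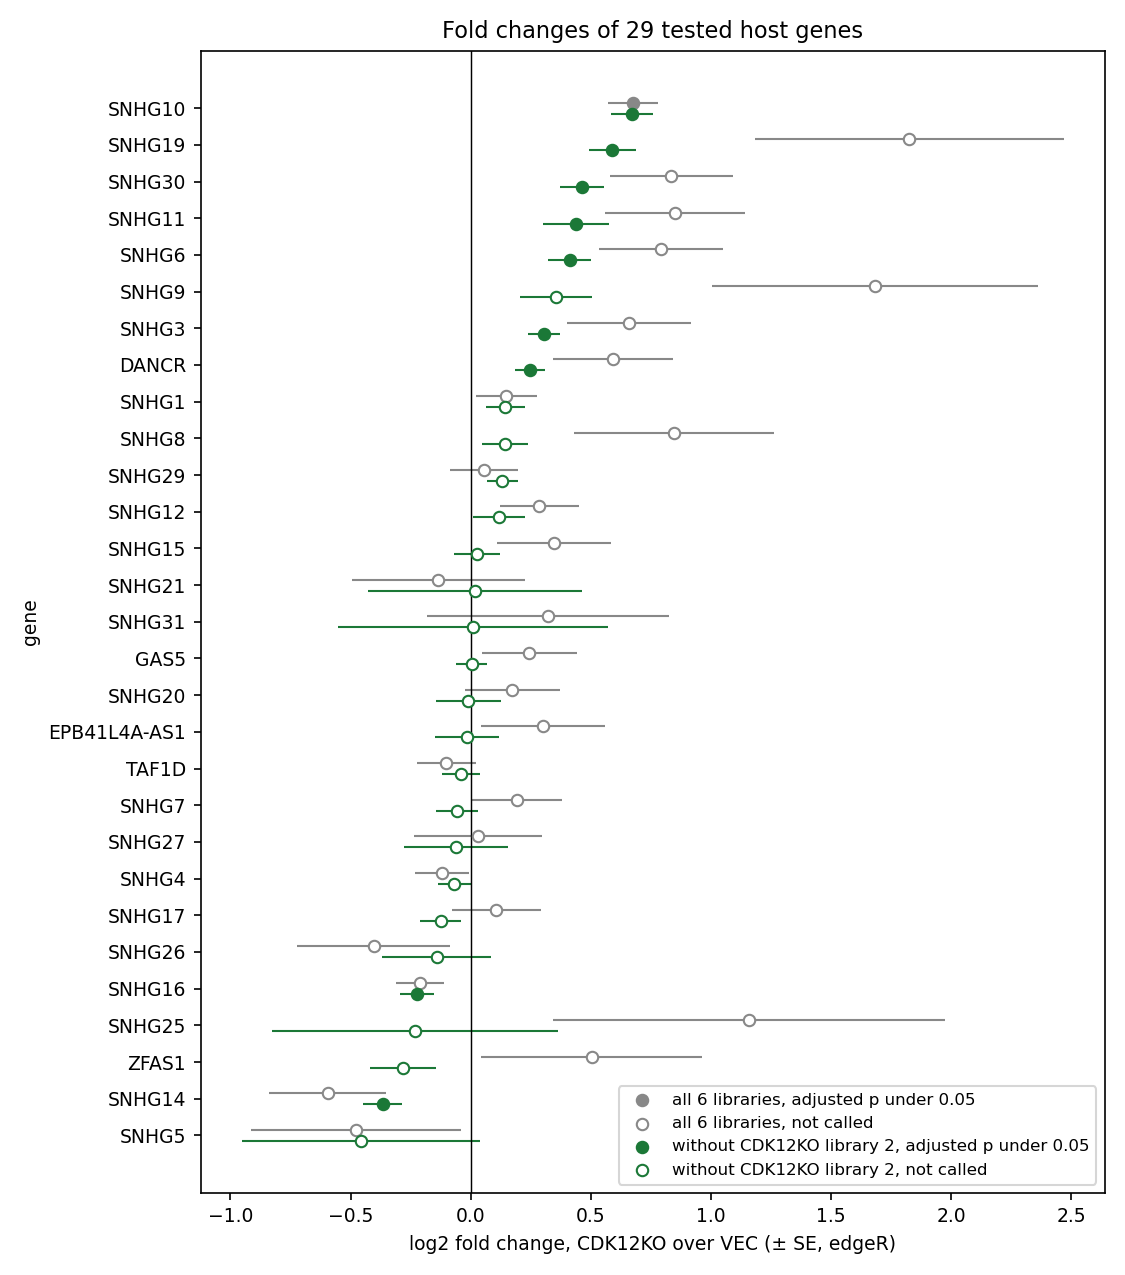
Log2 fold change of CDK12KO over VEC ± SE (edgeR) for the 29 tested host genes, with all 6 libraries in grey and without CDK12KO library 2 in green, filled where the adjusted p was under 0.05. Error bars shorten for most genes without library 2, and 9 green points are filled against 1 grey point.

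The classical growth-linked hosts were not called in either fit. GAS5, named for its rise in growth-arrested mouse fibroblasts and host of 10 box C/D snoRNAs, had 289, 445 and 294 CPM in CDK12KO, against 283, 279.6 and 305 CPM in VEC. Without CDK12KO library 2 the groups overlapped and the log2 fold change was 0.0045 ± 0.064 (edgeR adjusted p = 0.971), and with it the value was 0.24 ± 0.20 (edgeR adjusted p = 0.441). SNHG1 had 137, 135 and 135 CPM in CDK12KO, against 128, 107 and 133 CPM in VEC. Its groups did not overlap, but the gap to VEC library 3 was narrow and neither 0.15 ± 0.13 with all libraries (edgeR adjusted p = 0.462) nor 0.14 ± 0.082 without library 2 (edgeR adjusted p = 0.238) passed the threshold on the log2 scale. With library size as the only scaling, SNHG1 took the other sign (-0.03) with all libraries.

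ZFAS1, the antisense neighbour of ZNFX1 and host of the SNORD12 snoRNAs, had 15.2, 55.9 and 20.3 CPM in CDK12KO, against 19.5, 20.6 and 24.2 CPM in VEC. Library 2 alone was high, and libraries 1 and 3 lay within or below the VEC range. The log2 fold change was 0.50 ± 0.46 with library 2 (edgeR adjusted p = 0.489) and -0.28 ± 0.14 without it (edgeR adjusted p = 0.162), so leaving out this library turned its direction. Without library 2, ZFAS1 was called lower after the length and GC correction (-0.38, edgeR adjusted p = 0.0223).

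SNHG29 had 298, 252 and 306 CPM in CDK12KO, against 256, 289.9 and 278 CPM in VEC, and hosts SNORD49A, SNORD49B and SNORD65. Without library 2 it lay just above VEC, at 0.13 ± 0.066 on the log2 scale (edgeR adjusted p = 0.175). Column 3 counts put it at 0.33 (edgeR adjusted p = 0.00187), and leaving out VEC library 2 put it at 0.17 (edgeR adjusted p = 0.0175). SNHG4 had 109, 95.5 and 108 CPM in CDK12KO, against 111, 114 and 116 CPM in VEC. It was lower in every CDK12KO library but not called in either fit, at -0.12 ± 0.11 (edgeR adjusted p = 0.496) and -0.067 ± 0.067 (edgeR adjusted p = 0.531). TAF1D had 84.3, 73.9 and 87.7 CPM in CDK12KO, against 94.7, 81.3 and 88.0 CPM in VEC, and its groups overlapped (log2 fold changes -0.10 ± 0.12 and -0.040 ± 0.078).

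SNHG15, the host of SNORA9, had 52.7, 97.5 and 60.0 CPM in CDK12KO, against 58.5, 48.7 and 58.2 CPM in VEC. SNHG17, the host of 4 SNORA71 genes, had 50.2, 81.7 and 58.3 CPM in CDK12KO, against 58.2, 59.2 and 59.3 CPM in VEC. SNHG7, the host of SNORA17A and SNORA17B, had 41.8, 63.2 and 39.8 CPM in CDK12KO, against 41.5, 41.9 and 43.4 CPM in VEC. In these 3 genes CDK12KO library 2 was alone at the top and the other 2 knockout libraries stayed near VEC. Their log2 fold changes were 0.35 ± 0.24, 0.11 ± 0.19 and 0.19 ± 0.19 with all libraries (edgeR adjusted p = 0.372 to 0.724). Without library 2 they were 0.026 ± 0.095, -0.12 ± 0.085 and -0.056 ± 0.088 (edgeR adjusted p = 0.340 to 0.884).

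SNHG12, the host of 3 H/ACA snoRNAs and SNORD99, had 25.2, 36.2 and 28.3 CPM in CDK12KO, against 25.3, 22.8 and 25.4 CPM in VEC. EPB41L4A-AS1, the host of SNORA13, had 23.2, 38.6 and 21.6 CPM in CDK12KO, against 25.2, 17.8 and 24.5 CPM in VEC. SNHG20, the host of SCARNA16, had 15.6, 24.7 and 19.9 CPM in CDK12KO, against 17.5, 19.99 and 15.8 CPM in VEC. The groups overlapped in each of them, again with library 2 highest. The log2 fold changes were 0.29 ± 0.17, 0.30 ± 0.26 and 0.17 ± 0.20 with all libraries, and 0.12 ± 0.11, -0.015 ± 0.13 and -0.0096 ± 0.13 without library 2, none called. SNHG27, the gene without a snoRNA in RefSeq, had 5.38, 9.31 and 10.5 CPM in CDK12KO, against 7.68, 7.67 and 9.23 CPM in VEC, and its knockout libraries enclosed the VEC range (log2 fold changes 0.030 ± 0.27 and -0.062 ± 0.22). The 5 tested hosts under a mean of 5 CPM were SNHG5, SNHG21, SNHG25, SNHG26 and SNHG31. They had 0.721 to 3.30 CPM on average and were not called in either fit.

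The largest differences between CDK12KO library 2 and the rest lay in the shortest hosts. SNHG9, which hosts SNORA78 in 551 exonic bases, had 11, 65.0 and 12.5 CPM in CDK12KO, against 8.29, 9.63 and 9.56 CPM in VEC. Its log2 fold change was 1.68 ± 0.68 with all libraries (edgeR adjusted p = 0.223) and 0.35 ± 0.15 without library 2 (edgeR adjusted p = 0.108). SNHG8, which hosts SNORA24 in 923 exonic bases, had 65.9, 191 and 67.7 CPM in CDK12KO, against 58.7, 52.8 and 69.2 CPM in VEC. In both genes the value of library 2 was several times that of its group mates, and SNHG8 overlapped VEC without it (0.14 ± 0.096, edgeR adjusted p = 0.325). SNHG25, the host of SNORD104 with 278 exonic bases, had 10, 48 and 10 reads in CDK12KO, against 6, 12 and 14 reads in VEC.

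Across the 29 tested hosts, the log2 shift of a CDK12KO library from the VEC mean fell with exonic length (GENCODE 29), at Spearman's rho = -0.41 in library 1, -0.60 in library 2 and -0.36 in library 3. Across the 15250 tested genes with a length, rho was -0.19, -0.33 and -0.24 in the same libraries. These are descriptions across genes that share their libraries, and genes are not replicates. The 4 hosts under 1 kb, SNHG25, SNHG19, SNHG9 and SNHG8, had a median shift of 0.20, 2.53 and 0.31 in CDK12KO libraries 1, 2 and 3, and the 1407 genes under 1 kb had 0.10, 0.70 and 0.18. Hosts of 1 kb or more had a median shift of 0.00025, 0.56 and 0.02. Length thus moved with the shift in every knockout library and most in library 2. Its part in the calls was not tested. The length and GC correction takes both features together and also removes any difference between the groups that follows them. With all libraries this correction gave 0 calls among the hosts. Without library 2 it kept 7 of the 9 calls, lost DANCR and SNHG11 and added ZFAS1, and it called 20.5% of all genes.

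**Figure D3:**
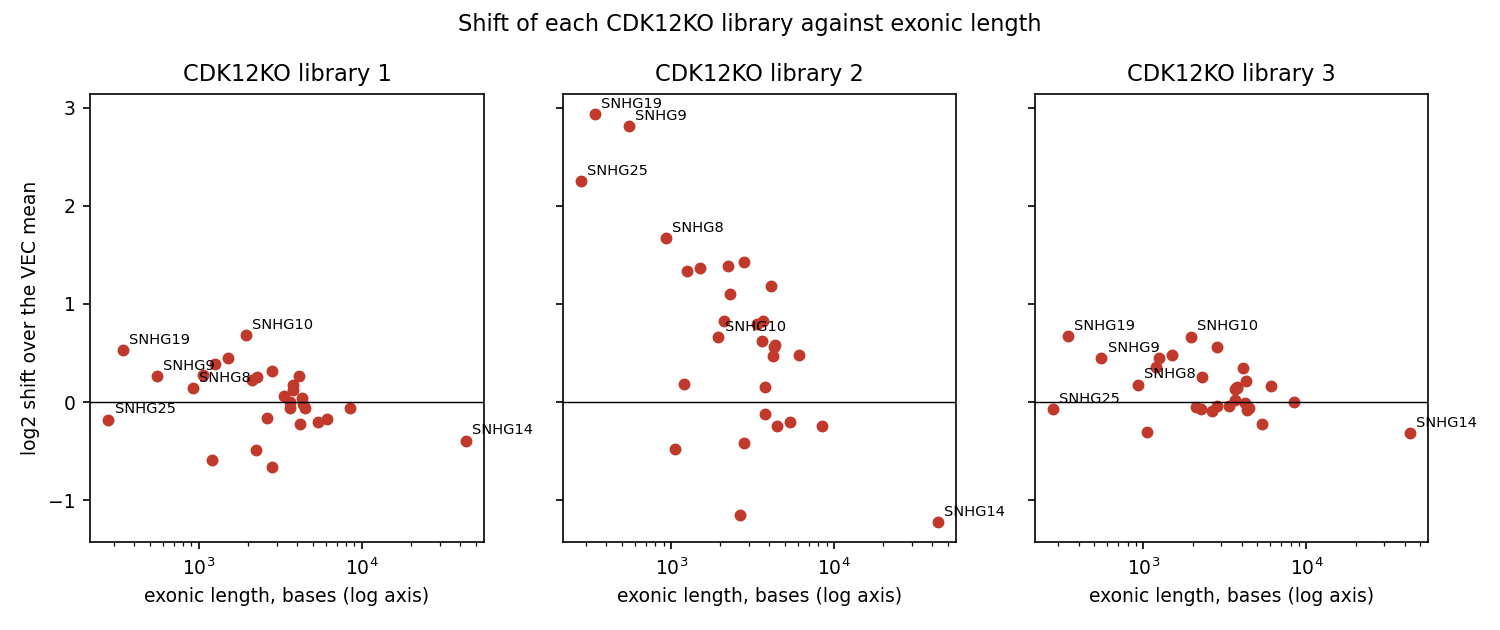
Log2 shift of each CDK12KO library over the VEC mean against exonic length (log axis) for the 29 tested host genes, with 1 point per gene and 6 genes named. In library 2 the short hosts SNHG19, SNHG9, SNHG25 and SNHG8 lie highest and SNHG14 lowest, and the spread is smaller in libraries 1 and 3.

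Tested hosts with the pyrimidine run, SNHG12, SNHG19, SNHG26, SNHG4, SNHG5, SNHG7, TAF1D and ZFAS1, had log2 fold changes with a median of 0.04 for all libraries and -0.06 without CDK12KO library 2, and 1 of these 8, SNHG19, was called in the second fit. The 17 without the run had medians of 0.24 and 0.02, with 5 called higher and 2 lower. These are 12.5% of the 8 and 41.2% of the 17, where 19.1% of all genes were called. SNHG6, SNHG9, SNHG15 and SNHG25 were not in the promoter table. The difference between hosts with and without the run was not tested.

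Levels between genes are compared per length, as CPM per kilobase of exonic sequence. This length covers the exons of all GENCODE 29 transcripts of a gene, so it can exceed the length of the RNA present. For SNHG1 (25 transcripts) it was 3756 of a span of 3927 bases, and for GAS5 (29 transcripts) 3631 of 4983. SNHG19 has 1 transcript, with 342 exonic bases. Levels of hosts with many annotated transcripts may therefore be understated, and the order holds for this length only. In unstranded counts the VEC order was led by SNHG19, at 156 ± 22.3 CPM per kb (SD, n = 3), then DANCR at 124 ± 4.66, GAS5 at 79.7 ± 3.80, SNHG29 at 73.0 ± 4.65, SNHG8 at 65.3 ± 9.02 and SNHG3 at 58.0 ± 3.95 CPM per kb. SNHG19 and DANCR did not overlap over the VEC libraries, while GAS5 and SNHG29, SNHG29 and SNHG8, and SNHG8 and SNHG3 overlapped, so these neighbours do not differ beyond their spread. In CDK12KO SNHG19 was at 553 ± 551 CPM per kb, DANCR at 187 ± 67.7, SNHG8 at 117 ± 78.0, GAS5 at 94.3 ± 24.5, SNHG3 at 91.7 ± 34.5 and SNHG29 at 75.8 ± 7.80 CPM per kb. The wide SD in CDK12KO came with library 2, so neighbours in that order do not separate. Over CDK12KO libraries 1 and 3 the means were 236 CPM per kb for SNHG19, 148 for DANCR, 80.3 for SNHG29, 80.2 for GAS5, 72.4 for SNHG8 and 71.9 for SNHG3. The order also depends on the counting, since SNHG29 in VEC would stand at 196 CPM per kb if all its strand-assigned reads were its own, above SNHG19 at 156. At the other end of the called genes, SNHG14 had 2.67 ± 0.829 CPM per kb in CDK12KO and 4.04 ± 0.451 CPM per kb in VEC.

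Together the 33 genes took 0.239%, 0.266% and 0.25% of the counted reads in CDK12KO libraries 1 to 3, against 0.227%, 0.222% and 0.243% in VEC libraries 1 to 3. The 95% Wilson interval of a library reached about 0.002 percentage points to either side (0.237 to 0.241% in CDK12KO library 1), which covers counting error only. Means were 0.252 ± 0.0137% in CDK12KO and 0.231 ± 0.0110% in VEC (SD, n = 3 each). CDK12KO library 1 lay below VEC library 3, so the groups overlap in the unstranded counts. With column 3 counts they did not overlap, at 0.293%, 0.395% and 0.304% in CDK12KO and 0.268%, 0.267% and 0.282% in VEC. Without CDK12KO library 2 the unstranded mean of CDK12KO was 0.245%. DANCR had the most reads in every library, and without it the means were 0.213% in CDK12KO and 0.201% in VEC.

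Many hosts overlap a gene on the other strand, and a read in such an overlap is dropped from the unstranded count as ambiguous. The libraries are not stranded, so the count by strand assigns each overlap read once to a host and once to its neighbour. For reads shared with a gene on the other strand, the 2 counts bound the host's reads from below and above. Reads shared with a gene on the same strand, such as RCC1 for SNHG3 and SNRPN for SNHG14, are missing from both. For SNHG16 the ratio of strand-assigned to unstranded reads was 3.97, 7.65 and 4.09 in CDK12KO libraries 1 to 3, against 3.30, 3.47 and 3.10 in VEC. For SNHG29, which overlaps LRRC75A, it was 3.08, 8.62 and 3.05 in CDK12KO, against 2.75, 2.71 and 2.60 in VEC. The ratio was higher in each CDK12KO library than in VEC for both genes, and highest in library 2. SNHG6, beside MCMDC2, had ratios of 1.92, 2.51 and 1.84 in CDK12KO, against 1.77, 1.72 and 1.96 in VEC.

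SNHG10, beside GLRX5, had ratios of 1.41, 2.04 and 1.46 in CDK12KO, against 1.37, 1.40 and 1.38 in VEC. Counted by strand, its log2 fold change with all libraries was 0.85 (edgeR adjusted p = 0.102), so the sign was the same. Of the set, 5 genes had a ratio of at least 1.5 over all libraries, among them SNHG22 with 9 unstranded reads. Ambiguous reads over all genes were 12.2%, 14.4% and 12.2% of reads in CDK12KO, against 11.6%, 11.2% and 11.2% in VEC.

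**Figure D4:**
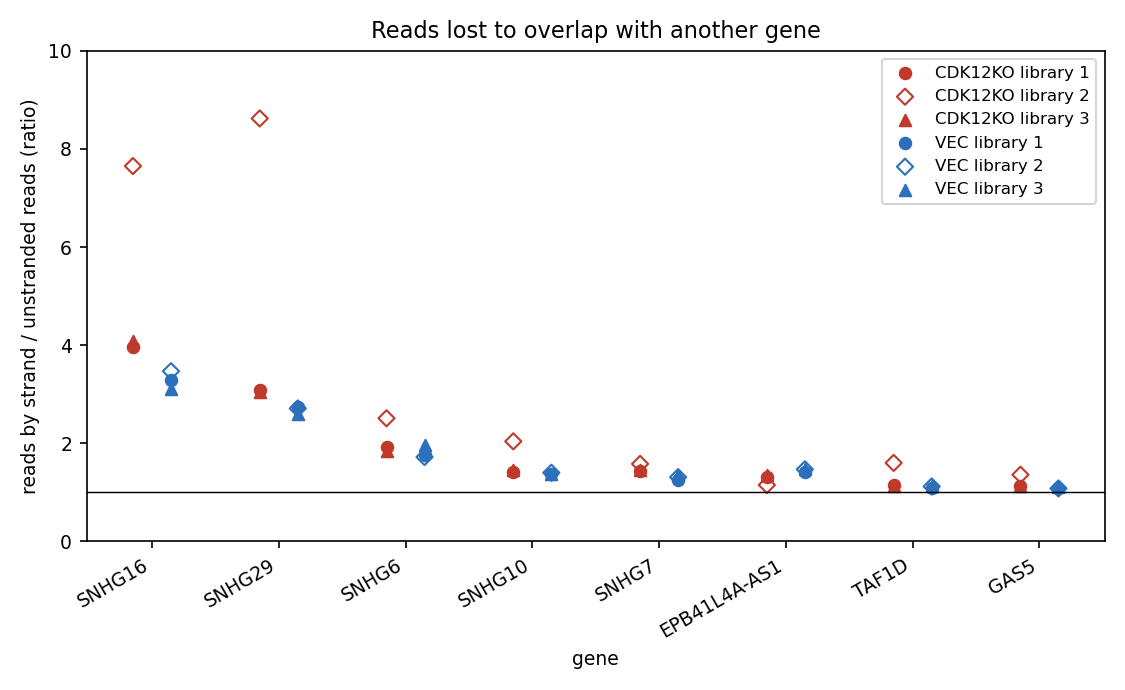
Ratio of reads assigned by strand to unstranded reads in each library for the 8 hosts with the highest ratio among those that averaged 5 CPM or more, with CDK12KO in red and VEC in blue. SNHG16 and SNHG29 reach 7.65 and 8.62 in CDK12KO library 2, and the line at 1 marks equal counts.

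The values of partners and of listed genes below are from the fit without CDK12KO library 2 unless stated. By GENCODE 29, 12 of the 33 genes have an opposite-strand gene that starts within 1000 bases of their own start. SNHG1 shares its start region with SLC3A2, the heavy chain of several amino acid transporters. SLC3A2 had 394, 573 and 398 CPM in CDK12KO, against 292, 287 and 290.0 CPM in VEC, and was called without CDK12KO library 2 (log2 fold change 0.44 ± 0.060, edgeR adjusted p = 3.97e-05), where SNHG1 was not. RPS2, beside SNHG9, was called as well (0.23 ± 0.072, edgeR adjusted p = 0.0330). GLRX5, beside SNHG10, was at 0.06 ± 0.070 (edgeR adjusted p = 0.597), and TRAF7, beside SNHG19, was at 0.18 ± 0.078 (edgeR adjusted p = 0.118), so neither partner of these called hosts was called. ZBTB37, beside GAS5, and ZNFX1, beside ZFAS1, were at -0.21 ± 0.11 and -0.19 ± 0.093, not called. MED17 and C11orf54, beside TAF1D, were at -0.24 ± 0.21 and 0.14 ± 0.13, not called. The difference between a host and its partner was not tested.

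The snoRNAs themselves were barely sampled. GENCODE 29 places 152 snoRNA genes that the files list inside the set. They held 126, 92 and 135 reads in CDK12KO libraries 1 to 3, against 165, 140 and 168 reads in VEC. Only 6 to 8 of them had any read in a library. GENCODE 29 places 0 inside GAS5 and 7 inside SNHG1, where RefSeq places 11 and 9. The snoRNAs of GAS5 are therefore missing from these totals. SNORA73B, inside SNHG3, had the most reads over all libraries, with 65, 3 and 75 reads in CDK12KO, against 85, 69 and 75 reads in VEC. In CDK12KO library 2 it stood behind SNORD104 with 44 reads and SNORD99 with 39. At these counts no comparison of snoRNA levels was made.

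Ribosomal protein genes that host snoRNAs were mostly higher in CDK12KO. Of 25 tested, 21 were called higher (84%, beside 10.2% of all genes) and 0 lower without CDK12KO library 2, with a median log2 fold change of 0.30. RPL32 had 1384, 4214 and 1406 CPM in CDK12KO, against 915, 1034 and 909 CPM in VEC (0.55 ± 0.068, edgeR adjusted p = 1.61e-05). All CDK12KO libraries lay above VEC, and library 2 was again far higher. RPLP2 (0.50 ± 0.064, edgeR adjusted p = 2.40e-05) and RPSA (0.48 ± 0.067, edgeR adjusted p = 5.82e-05) were also called. With all libraries 0 of the 25 were called by edgeR, by DESeq2 or by limma-voom, 11 had an unadjusted p under 0.05, and the median was 0.94. Their median shift was 0.30, 1.66 and 0.31 in CDK12KO libraries 1, 2 and 3, beside the 0.04, 0.62 and 0.13 of the hosts described above. Over all tested genes with a length, the shift fell with exonic length in the same libraries (Spearman's rho = -0.19, -0.33 and -0.24). The exonic lengths of the ribosomal protein hosts were not compared.

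Protein-coding hosts outside the ribosome were lower in CDK12KO where they were called. Without CDK12KO library 2, 7 of 22 were called lower and 0 higher (median -0.07), which is 31.8% beside the 8.88% of all genes called lower. These include EIF3A, a translation initiation factor subunit (-0.39 ± 0.070, edgeR adjusted p = 0.000565), CNOT1, the scaffold of the CCR4-NOT deadenylase (-0.43 ± 0.084, edgeR adjusted p = 0.00145), the RNA helicase gene EIF4A1 (-0.88 ± 0.17, edgeR adjusted p = 0.000892) and the importin gene TNPO2 (-0.29 ± 0.066, edgeR adjusted p = 0.00440). EIF4A1 was counted at only 2.39 to 14.4 CPM. With all libraries 0 of 22 were called by edgeR, 1 by DESeq2 and 0 by limma-voom, and 4 had an unadjusted p under 0.05.

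Of 21 tested long noncoding RNAs not known as snoRNA hosts, 1 was called higher and 3 lower without CDK12KO library 2 (median -0.12). That share of 19% is the same as the 19.1% of all genes. CRNDE was higher (0.47 ± 0.11, edgeR adjusted p = 0.00560), and NORAD (-0.28 ± 0.071, edgeR adjusted p = 0.00930), OIP5-AS1 (-0.27 ± 0.072, edgeR adjusted p = 0.0130) and EBLN3P (-0.32 ± 0.11, edgeR adjusted p = 0.0480) were lower. With all libraries 0 were called by edgeR, 1 by DESeq2 and 0 by limma-voom, with 5 at an unadjusted p under 0.05. The difference between these lists and the noncoding snoRNA hosts was not tested.

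Genes for the proteins that bind and assemble snoRNAs were called at a share near that of all genes (19.1%). Every call among them was higher, and 10.2% of all genes were called higher. Of the 8 core proteins of the box C/D and H/ACA particles, 2 were called higher without CDK12KO library 2 (25%). NOP10, of the H/ACA particle, was at 0.32 ± 0.066 (edgeR adjusted p = 0.00187) and FBL, the methyltransferase fibrillarin, at 0.27 ± 0.073 (edgeR adjusted p = 0.0133). NOP58 (-0.11 ± 0.073), NOP56 (0.06 ± 0.061) and DKC1, the pseudouridine synthase (-0.058 ± 0.064), were not called. Of 12 assembly factors 2 were called (16.7%). RUVBL1 (0.26 ± 0.062, edgeR adjusted p = 0.00605) and PIH1D1 (0.29 ± 0.071, edgeR adjusted p = 0.00675) were called higher, both parts of the R2TP chaperone machinery.

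Of 15 nonsense-mediated decay factors, 2 were called higher and 1 lower without library 2 (20%, near the 19.1% of all genes). MAGOH (0.38 ± 0.092, edgeR adjusted p = 0.00672) and EIF4A3 (0.20 ± 0.065, edgeR adjusted p = 0.0352), both of the exon junction complex, were higher, and the endonuclease gene SMG6 was lower (-0.54 ± 0.13, edgeR adjusted p = 0.00629). UPF1, the central helicase of the pathway, was at -0.13 ± 0.064 (edgeR adjusted p = 0.158). Of 13 TOR and La-related regulators of TOP RNAs, 4 were called (30.8%). EIF4EBP1, the translation repressor that TOR phosphorylates, was higher (0.65 ± 0.071, edgeR adjusted p = 3.69e-06). LARP1, which binds TOP RNAs (-0.24 ± 0.066, edgeR adjusted p = 0.0148), LARP4 (-0.29 ± 0.083, edgeR adjusted p = 0.0182) and MTOR (-0.28 ± 0.082, edgeR adjusted p = 0.0234) were lower. With all libraries edgeR called 0 genes of these 4 lists, DESeq2 called 1 and limma-voom called 0, and 8 genes had an unadjusted p under 0.05.

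**Figure D5:**
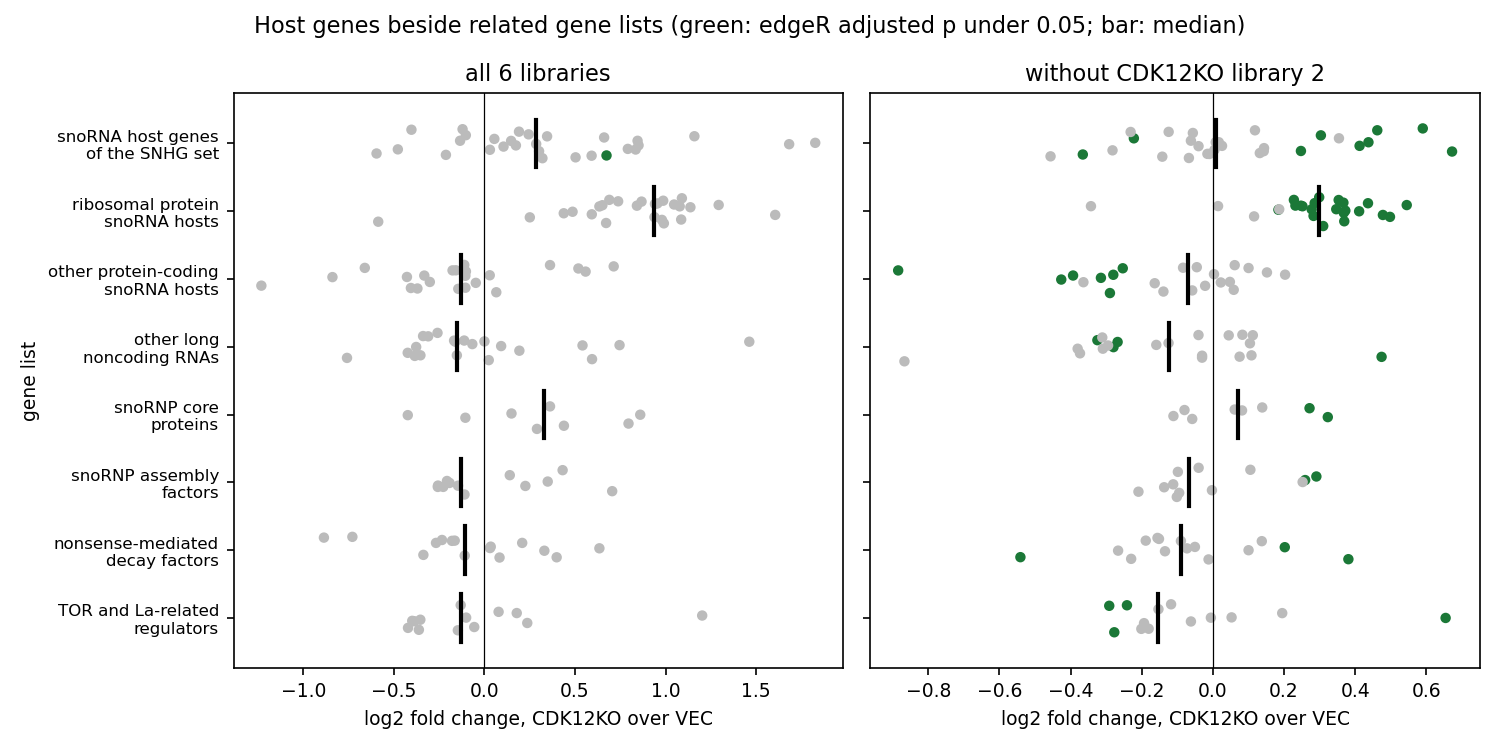
Log2 fold change of CDK12KO over VEC for every tested gene of 8 lists, with all 6 libraries on the left and without CDK12KO library 2 on the right (green points have an edgeR adjusted p under 0.05, black bars are medians). Ribosomal protein hosts have a median of 0.94 and 0.30, and the hosts of the SNHG set 0.29 and 0.0081. The horizontal scales of the 2 panels differ.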

How the data were processed

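RNA of 3 CDK12KO and 3 VEC libraries was sequenced. Per the labels' protocols, RNA was extracted with RNeasy and libraries were made with a SMARTer kit. Per the submitters' processing notes, FastQC and STAR were used with GRCh38. The annotation release is not given in the sources used here. The deposited files hold raw gene counts in STAR's layout, with 1 unstranded column, which was used, and 2 stranded columns. Their 4 summary rows were removed first. Identifiers were matched to symbols for 62672 of 62696 rows.

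The main test was edgeR 4.0.16 under R 4.3.3 (robust quasi-likelihood fit after filterByExpr and TMM scaling, no block), with Benjamini-Hochberg adjustment over all tested genes and a threshold of 0.05. SE is the fold change divided by the square root of F. Log2 shifts of single libraries used a prior of 2 counts. Alternatives were limma 3.58.1 (voom), DESeq2 1.42.0, other scalings and filters, a replicate block, column 3 counts, a spline correction for length and GC content (96.6% of tested genes have a length) and leaving out each library. Coordinates, lengths, overlaps and the snoRNA genes whose reads were summed come from GENCODE 29. The snoRNA genes named for each host and the promoters come from RefSeq. Members and lists were chosen with earlier results of these data known. Members with a mean of at least 5 CPM are named with all values, and up to 4 genes of each list by smallest adjusted p without CDK12KO library 2. Genes with larger p named for their role were chosen after their values were seen.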

Additional observations from a re-analysis of the deposited data

How the results depend on the processing

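The count of called hosts depended on CDK12KO library 2. With all 6 libraries it was 1, where 0.596% of all genes were called (6.21% with DESeq2). It was 0 with library size as the only scaling, with the replicate block, with column 3 counts and with the length and GC correction, 2 with DESeq2, and 0 to 9 over the fits without one library, the 9 being without CDK12KO library 2. Without that library it was 9, and 4 to 10 when a further library was left out (4 without CDK12KO library 3, 5 without library 1, where the lone knockout library is assumed to vary like the VEC libraries). The other alternatives gave 7 to 12. Without CDK12KO library 2, 19.1% of all genes were called in the main fit and 20.5% with the length and GC correction. DESeq2 called 16.1% and limma-voom 18.7%. For the other fits that left out a library, shares of all genes are not given. Their counts of hosts therefore cannot be read as particular to the hosts. SNHG16 reversed to 0.063 with column 3 counts. Among single hosts, 440 of the values under alternatives to the fit on 6 libraries kept the main call or lack of one, 9 gained a call and 9 lost it. On 5 libraries these were 399, 6 and 20, and 1 reversed. The share of counted reads was 0.330% in CDK12KO and 0.272% in VEC with column 3 counts, and 0.213% and 0.201% without DANCR. Library size as the only scaling moved the median of all genes to -0.18 (with TMM 0.00037), that of the hosts to 0.058 (with TMM 0.29) and the split of all calls to 32 higher and 7 lower (66 and 28 with TMM), and gave SNHG1 (-0.03), SNHG29 (-0.10) and SNHG17 (-0.12) the other sign with all libraries. Deviations of same-numbered libraries from their group means correlated at 0.135, 0.194 and 0.0841, and each library correlated best with its own number. Differently numbered libraries correlated at -0.193 to 0.0762. Whether the numbers mark pairs was not settled, and the main fits held no block. With the replicate block the calls were 0 with all libraries (5 of all genes) and 12 without CDK12KO library 2 (9 higher and 3 lower, and 5540 of all genes, 33.9%). The 3 calls it added were SNHG9 (0.39), SNHG29 (0.17) and ZFAS1 (-0.31). Depth limits the hosts under 5 CPM and the snoRNA genes, where at most 168 reads per library were counted inside the hosts.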
